A study of Mus musculus with 2 samples.

Results

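Immediate early genes are transcribed within minutes of a stimulus from factors already present in the cell, without new protein synthesis. The set described here holds 10 of the 32285 genes counted in the series: the FOS family genes Fos, Fosb and Fosl1, the JUN family genes Jun, Junb and Jund, the stress-induced bZIP factor Atf3, the zinc finger factor Egr1, and the immediate early response genes Ier2 and Ier3. The genes were taken by name from these families, a choice made with earlier results of these data known. All 10 were counted in both libraries and none was left out.

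FOS and JUN proteins pair to form AP-1, the factor that binds TRE-type sites in promoters and enhancers and passes on signals from growth factors, cytokines and stress. Jun proteins can pair with each other, whereas Fos proteins need a Jun partner. Egr1 is switched on through serum response factor and MAP kinase signalling, and in dissociated tissue these genes are also known to be induced by enzymatic digestion itself.

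Single cell libraries were made from mammary glands of adult wild-type female mice, either control animals (Ctrl) or animals given clodronate liposomes (CL) by 3 intraperitoneal injections before the glands were taken. These lipid vesicles carry a drug that kills the phagocytes that swallow them. The labels give ages of 8 to 10 weeks in the protocol and 9 to 10 weeks as a sample property, and the strain, the number of animals pooled and what the control animals received were not given for these libraries. Both groups went through the same dissociation, 2 h of digestion at 37 °C followed by 5 min of trypsin, and the sort took CD45+ immune cells together with CD31-TER119- cells, pooled in proportions that the sources do not give. What digestion added and what the cells carried in the gland cannot be told apart here.

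Each group had 1 library, so differences between the groups have no replicate check, and they are given without p-values. Values are CPM, the number of UMIs of a gene (molecular barcodes, each tagging 1 captured transcript) per 1e6 UMIs of the cells counted. Since a UMI is counted once at the 3′ end of a transcript, CPM values of different genes were compared without division by gene length. Square brackets hold exact 95% intervals, Poisson for levels, conditional binomial for ratios and Clopper-Pearson for shares, and they cover counting error only. After filtering, 5937 cells (Ctrl label) and 8826 cells (CL label) remained, with medians of 11351 and 10337 UMIs per cell, and 12 barcodes were shared between them. Cells were grouped into 7 classes named by their markers, with clusters made without the 10 genes, and 2 further clusters stayed unnamed. Over all kept cells the 8 macrophage markers summed to 57.2 CPM under the Ctrl label and 78.4 CPM under the CL label, so that their log2 ratio was 0.46 [0.41, 0.51], opposite to what the treatment label implies. Macrophage-like cells, by contrast, made up 0.691% [0.496, 0.936] and 0.487% [0.353, 0.656] of kept cells, lower under the CL label but with overlapping intervals, and shares of cells also depend on how the sorted fractions were pooled. The marker sum gives deeper cells more weight, and macrophage-like cells had medians of 7686 and 10718 UMIs. Within that class the markers stood at 13446 and 14630 CPM. Directions are given between the libraries as labelled, and where a pair of values is given the Ctrl label comes first.

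The summed level of the 10 genes was highest, among the named classes, in hormone-responsive luminal-like cells, at 20455 CPM [20415, 20495] under the Ctrl label and 21746 CPM [21710, 21783] under the CL label. Basal-like cells held 15400 and 16981 CPM, endothelial-like cells 15439 and 16959 CPM, secretory-lineage luminal-like cells 15222 and 13481 CPM, and fibroblast-like cells 13609 and 12262 CPM. The immune classes were lower, with 7126 and 5647 CPM in T and NK-like cells and 5860 and 4464 CPM in macrophage-like cells. In the order of the 7 classes, by the mean of the libraries, 5 of the 6 steps between neighbours were larger than the counting intervals in both libraries. Endothelial-like and basal-like cells could not be set apart, and the wide endothelial-like interval of the Ctrl-labelled library [14982, 15906] also held the level of secretory-lineage cells. Highest and lowest class differed 4.09-fold.

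**Figure D1:**
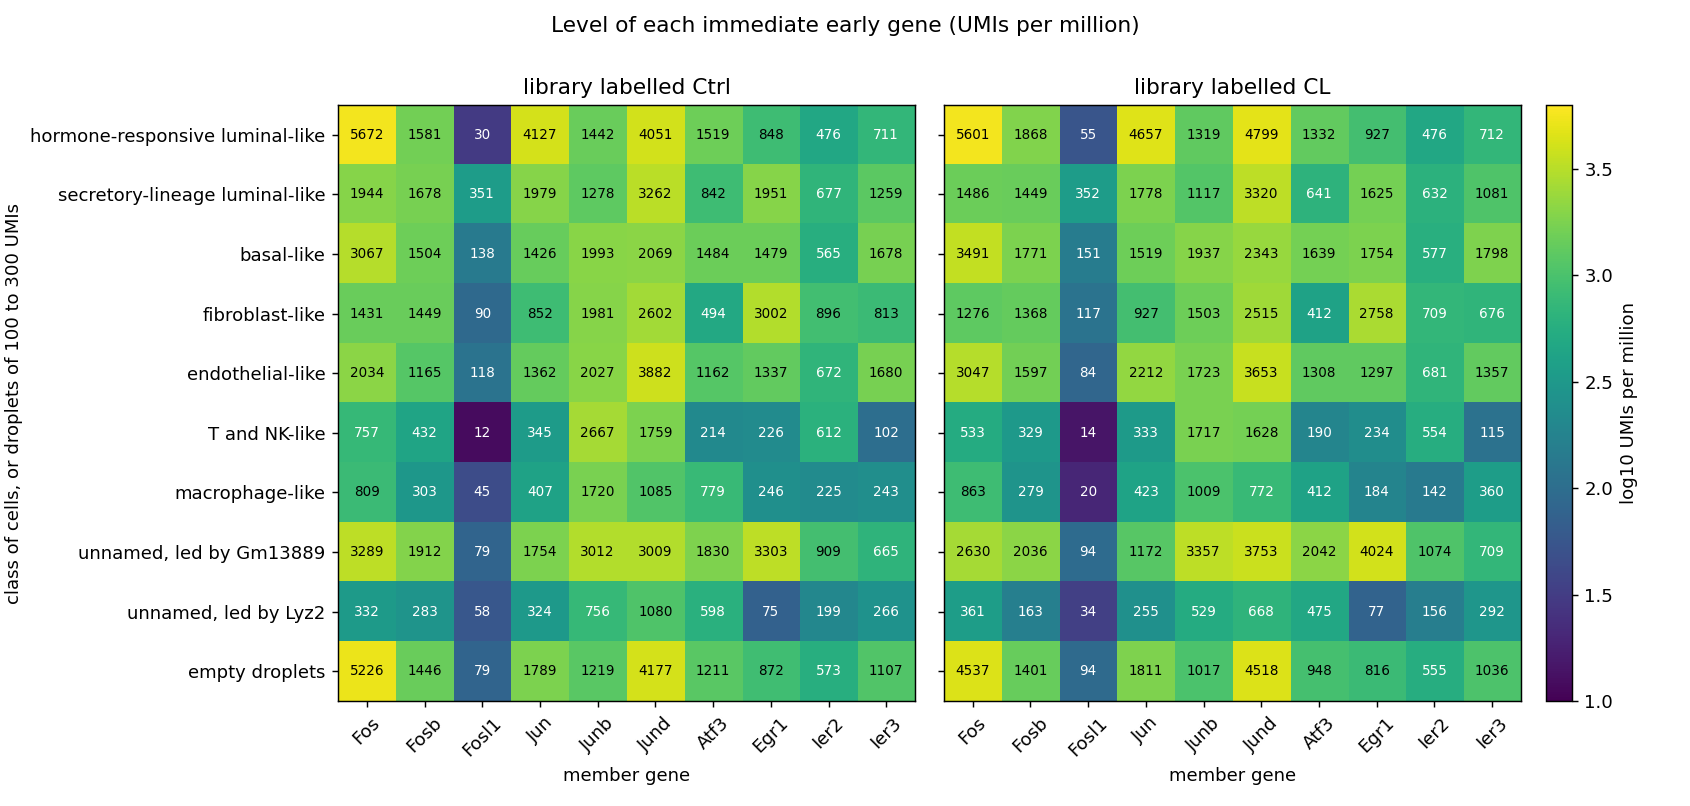
Level of each of the 10 genes (columns) in CPM, printed in each field and coloured on a log10 scale, in 7 named classes, 2 unnamed clusters and the empty droplets (rows), for the Ctrl-labelled library (left) and the CL-labelled library (right). Fos and Jun are highest in hormone-responsive luminal-like cells, Fosl1 in secretory-lineage cells, and, among the named classes, Egr1 in fibroblast-like cells, and the pattern of columns is alike in both libraries.

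Droplets of 100 to 300 UMIs, which hold free RNA rather than a cell, carried the set at 17700 CPM [17622, 17779] and 16733 CPM [16657, 16809]. The average over all kept cells was close to this, 17992 and 17550 CPM. Fos took 29.5% and 27.1% of the 10 genes' UMIs in these droplets, and Jund 23.6% and 27.0%. The level of a gene in a class was therefore read against the droplets. Jun in hormone-responsive cells stood at 2.31 and 2.57 times their level, Egr1 in fibroblast-like cells 3.44 and 3.38 times, and Fosl1 in secretory-lineage cells 4.42 and 3.76 times. Fos in hormone-responsive cells stood at 1.09 and 1.23 times the level of the droplets, and in every other class, the unnamed clusters included, it lay below them. In T and NK-like cells 8 of the 10 genes lay below the droplets in both libraries, with Junb at 2.19 and 1.69 times and Ier2 at 1.07 and 1.00 times their level. The share of all genes below the droplets in this class was not counted, so the 8 are not read as particular to the set.

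Fos (chr12:85473890-85477273, plus strand, GRCm38), the founding partner of AP-1, was the most abundant gene of the set in hormone-responsive cells. Its level there was 5672 CPM [5650, 5693] under the Ctrl label and 5601 CPM [5582, 5620] under the CL label. Basal-like cells followed with 3067 and 3491 CPM, and secretory-lineage cells held 1944 and 1486 CPM. Hormone-responsive cells thus had 2.92 and 3.77 times the Fos of their secretory-lineage neighbours, and the ranges of the classes did not overlap across libraries. Fibroblast-like cells had 1431 and 1276 CPM, macrophage-like cells 809 and 863 CPM, and T and NK-like cells 757 and 533 CPM.

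Fosb (chr7:19302696-19310051, minus strand), a close relative of Fos with a similar activation domain, was spread far more evenly over the epithelium and stroma. Its levels were 1581 and 1868 CPM in hormone-responsive cells, 1504 and 1771 CPM in basal-like cells, 1678 and 1449 CPM in secretory-lineage cells and 1449 and 1368 CPM in fibroblast-like cells. The order of hormone-responsive and secretory-lineage cells turned between the libraries, at 0.942 and 1.29 times. Only the immune classes stood clearly below, with 432 and 329 CPM in T and NK-like cells and 303 and 279 CPM in macrophage-like cells.

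Fosl1 (chr19:5447547-5455946, plus strand) encodes FRA1, a FOS protein that lacks the strong activation domain and usually appears later than Fos itself. Its order of the luminal classes was the reverse of that of Fos. Secretory-lineage cells held 351 CPM [344, 358] and 352 CPM [347, 358], against 29.9 CPM [28.4, 31.5] and 54.9 CPM [53.1, 56.8] in hormone-responsive cells, so that hormone-responsive cells had 0.0853 and 0.156 times the secretory level. Basal-like cells lay between, at 138 and 151 CPM. Of the 10 genes it had the widest range among the named classes, 26.7-fold from secretory-lineage cells down to T and NK-like cells, where 13 and 55 UMIs gave 12.0 and 14.4 CPM. Its level in hormone-responsive cells was below that of the empty droplets, 79.4 and 93.7 CPM.

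Jun (chr4:95049034-95052222, minus strand), the main partner of Fos in AP-1, shared its highest class with Fos. The order of secretory-lineage, endothelial-like and basal-like cells below it was not that of Fos. Hormone-responsive cells held 4127 CPM [4109, 4145] and 4657 CPM [4640, 4674], 2.09 and 2.62 times the 1979 and 1778 CPM of secretory-lineage cells. Endothelial-like cells had 1362 and 2212 CPM and basal-like cells 1426 and 1519 CPM. Fibroblast-like cells held 852 and 927 CPM, and both immune classes lay between 333 and 423 CPM. No other named class overlapped the range of hormone-responsive cells.

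Junb (chr8:84974484-84978718, minus strand), which restrains Jun in several cell types and also acts in lymphocyte differentiation, was the only gene of the set whose mean level was highest in T and NK-like cells among the named classes. They held 2667 CPM [2571, 2766] under the Ctrl label and 1717 CPM [1676, 1759] under the CL label, and this range overlapped or touched those of basal-like cells (1993 and 1937 CPM), endothelial-like cells (2027 and 1723 CPM) and fibroblast-like cells (1981 and 1503 CPM). Macrophage-like cells had 1720 and 1009 CPM. Luminal cells were low: hormone-responsive cells held 1442 and 1319 CPM, and secretory-lineage cells 1278 and 1117 CPM. Highest and lowest class differed by 1.83-fold, the narrowest range of the set. In T and NK-like cells Junb made up 37.4% and 30.4% of the UMIs of the 10 genes, against 7.05% and 6.06% in hormone-responsive cells.

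Jund (chr8:70698949-70700616, plus strand) is the JUN gene that is made in resting cells as well. Its level was 4051 and 4799 CPM in hormone-responsive cells, 3882 and 3653 CPM in endothelial-like cells and 3262 and 3320 CPM in secretory-lineage cells. Fibroblast-like cells had 2602 and 2515 CPM, basal-like cells 2069 and 2343 CPM and T and NK-like cells 1759 and 1628 CPM. Macrophage-like cells had the lowest level of the named classes, 1085 and 772 CPM.

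Atf3 (chr1:191170296-191218039, minus strand), a bZIP factor of the integrated stress response that can repress AP-1 targets, was high in basal-like cells, 1484 and 1639 CPM, and in hormone-responsive cells, 1519 and 1332 CPM, whose ranges overlapped. Secretory-lineage cells held 842 and 641 CPM. Fibroblast-like cells had 494 and 412 CPM and T and NK-like cells 214 and 190 CPM. Macrophage-like cells, at 779 and 412 CPM, overlapped the fibroblast-like range.

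Egr1, which encodes a zinc finger factor that binds GC-rich sites, led in the stroma. Fibroblast-like cells held 3002 CPM [2926, 3080] and 2758 CPM [2678, 2839], 1.54 and 1.70 times the 1951 and 1625 CPM of secretory-lineage cells. Basal-like cells held 1479 and 1754 CPM. Hormone-responsive cells, which led for Fos and Jun, had 848 and 927 CPM of Egr1, 0.434 and 0.571 times the secretory level. The immune classes were lowest, T and NK-like cells with 226 and 234 CPM and macrophage-like cells with 246 and 184 CPM.

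Ier2 (chr8:84661331-84662852, minus strand), a nuclear protein made early after growth stimuli, varied little outside the macrophage-like class. Its level ran from 896 and 709 CPM in fibroblast-like cells down to 476 and 476 CPM in hormone-responsive cells, with T and NK-like cells at 612 and 554 CPM. Macrophage-like cells had 225 and 142 CPM. Ier3 (chr17:35821684-35822923, plus strand), a target of NF-kappa B and p53 that affects cell survival, was high in basal-like cells, 1678 and 1798 CPM, and in endothelial-like cells, 1680 and 1357 CPM. Secretory-lineage cells held 1259 and 1081 CPM and hormone-responsive cells 711 and 712 CPM. The lowest level among the named classes was that of T and NK-like cells, 102 and 115 CPM, at 0.0925 and 0.111 times the level of the droplets.

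The unnamed clusters sat at opposite ends. The cluster led by Gm13889, which also carried contractile genes such as Tagln, Acta2 and Myh11 (41 and 53 cells), had a summed level of 19762 and 20891 CPM, and its Egr1 (3303 and 4024 CPM) and Junb (3012 and 3357 CPM) lay above those of every named class. The cluster led by Lyz2 (21 and 230 cells) had a summed level of 3972 and 3012 CPM, with Egr1 at 74.8 and 77.3 CPM, 0.0857 and 0.0946 times the level of the droplets. Its summed log2 ratio was -0.40 [-0.53, -0.26], with Fosb at -0.79 [-1.31, -0.23] and Jund at -0.69 [-0.96, -0.42]. Under the Ctrl label Fosb and Jund rested on 34 and 130 UMIs, of which a single cell held 41.2% and 33.8%. A single cell also held 21.1% of the summed UMIs there. The share of all genes past 1.5-fold was not counted for this cluster.

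Hormone-responsive, basal-like, fibroblast-like and T and NK-like cells were next set against secretory-lineage cells, the largest class. Endothelial-like and macrophage-like cells were not compared in this way. A gene was counted where it was past 1.5-fold in the same direction in both libraries, with at least 50 CPM and 50 UMIs on the higher side. In hormone-responsive cells Fos, Jun and Atf3 were higher (3 of 10, against 20.1% of 3245 genes), and Fosl1, Egr1 and Ier3 were lower (3 of 10, against 24.1%). In basal-like cells Fos, Junb and Atf3 were higher (3 of 10, against 18.1%), and Fosl1 was lower (1 of 10, against 20.2%). In fibroblast-like cells Egr1 was higher (1 of 10, against 27.9%), and Fosl1, Jun, Atf3 and Ier3 were lower (4 of 10, against 22.1%). With 10 genes, these shares lie from below to somewhat above those of all genes. In T and NK-like cells Junb alone was higher (1 of 10, against 29.4%), whereas 8 of 10 were lower, against 26.5% of 3526 genes. Secretory-lineage cells are shared by these comparisons, so the counts are not independent of each other.

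The spread between cells was examined after each cell was thinned to 2000 UMIs, which left out shallower cells (62 and 51 of the hormone-responsive class, 56 and 81 of the secretory-lineage class). In hormone-responsive cells the 10 genes had a median of 37 UMIs per cell under the Ctrl label and 40 under the CL label, from 14 and 15 at the 10th percentile to 74 and 77 at the 90th. In secretory-lineage cells the medians were 26 and 25 UMIs and the 90th percentiles 55 and 47. In T and NK-like cells the medians were 14 and 9 UMIs, and in macrophage-like cells 9 and 6.50. The classes thus overlapped cell by cell, and the variance of the summed UMIs exceeded the mean 14.6 and 14.2 times in hormone-responsive cells, where counting error alone would give equality.

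**Figure D2:**
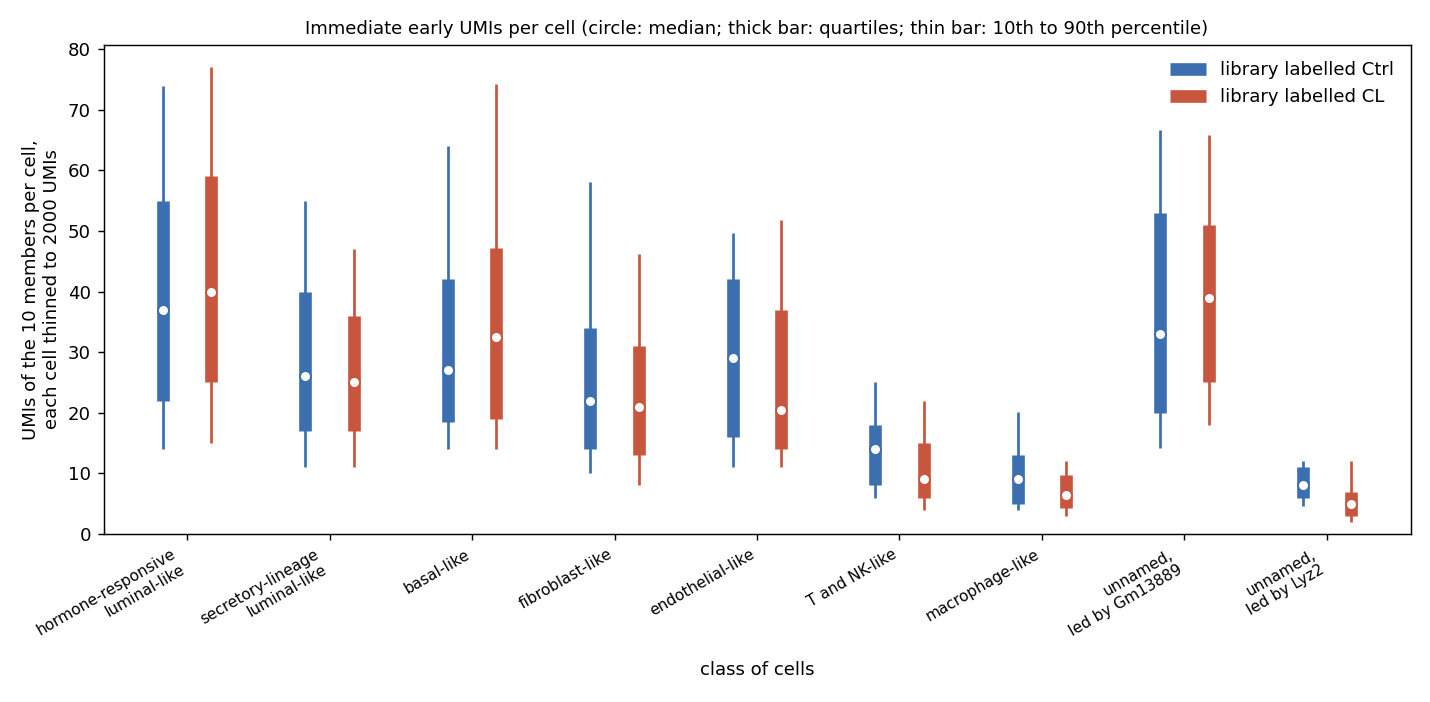
UMIs of the 10 genes per cell (vertical axis) by class after thinning every cell to 2000 UMIs, for the Ctrl-labelled library (blue) and the CL-labelled library (red), with circles at the median, thick bars over the quartiles and thin bars from the 10th to the 90th percentile of cells. Medians in hormone-responsive luminal-like cells are 37 and 40 UMIs, against 14 and 9 in T and NK-like cells, and the classes overlap.

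Shares of thinned cells with at least 1 UMI are given beside the levels. Fos was found in 95.8% [94.9, 96.6] and 95.5% [94.7, 96.2] of hormone-responsive cells, 78.3% and 74.4% of secretory-lineage cells and 67.5% and 57.2% of T and NK-like cells. Unthinned, the share in hormone-responsive cells was 99.6% in the Ctrl-labelled library. Fosl1 was found in 44.9% [43.0, 46.9] and 47.3% [45.7, 48.9] of secretory-lineage cells, against 4.91% [4.05, 5.89] and 7.77% [6.85, 8.78] of hormone-responsive cells. The lowest share of Fosl1 among the named classes, read as the background here since no class is known to lack the gene, was 0.515% [0.0130, 2.84] and 2.19% [1.23, 3.59] in T and NK-like cells. Median depths before thinning were 20311 and 18046 UMIs (hormone-responsive), 9670 and 9136.5 (secretory-lineage) and 4872 and 4458 (T and NK-like). Egr1 was found in 91.4% and 88.5% of fibroblast-like cells, 60.1% and 62.2% of hormone-responsive cells and, lowest of the named classes, 25.6% and 9.52% of macrophage-like cells. The lowest shares of Fos among the named classes were 61.5% and 54.8%, also in macrophage-like cells. Fos in both immune classes lay at 0.117 to 0.19 times the level of the droplets, and how much of its shares there came from free RNA was not tested.

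Within a class the genes varied together from cell to cell to different degrees. In hormone-responsive cells Spearman's rho between Fos and Jun was 0.64 over 2240 cells of the Ctrl-labelled library and 0.65 over 3049 cells of the CL-labelled library, and between Fos and Fosb 0.57 and 0.56. In secretory-lineage cells the pair of Fos and Jun had 0.34 and 0.27. In basal-like cells the highest value was that of Fos with Egr1, 0.55 and 0.60, followed by Fos with Atf3, 0.49 and 0.49. Fosl1 stood apart from the other genes, with values from -0.15 to -0.01 against Fos in hormone-responsive, secretory-lineage and basal-like cells of both libraries. The pair of Fos and Jun in T and NK-like cells had 0.15 and 0.10. The points share library, class and depth after thinning, and rare genes lower such values, so these are descriptions without a test.

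**Figure D3:**
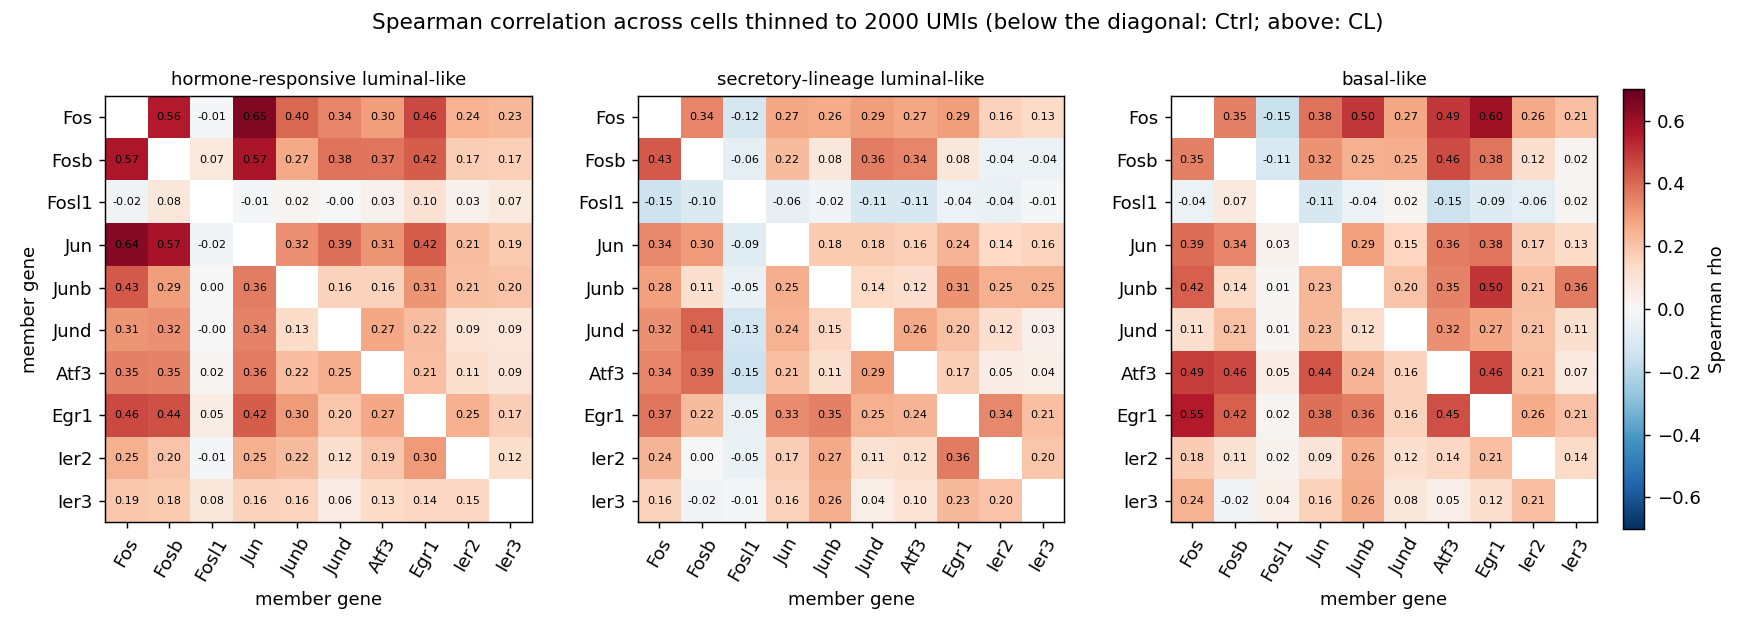
Spearman correlation of the UMIs of each pair of genes across cells thinned to 2000 UMIs in 3 epithelial classes, with the Ctrl-labelled library below the diagonal and the CL-labelled library above it, coloured from blue (negative) to red (positive). Fos, Fosb and Jun form the reddest block in hormone-responsive luminal-like cells (0.56 to 0.65), Fos and Egr1 reach 0.55 and 0.60 in basal-like cells, and the row of Fosl1 is near 0 or below in the secretory-lineage and basal-like panels.

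The promoters of Fos, Fosb, Jun, Junb and Atf3 are shown as those of the main FOS and JUN genes and of Atf3, for comparison of the short sites they hold. RefSeq promoters (GRCm38.p6, 250 bases before to 50 bases after the annotated start, printed 5′ to 3′ on the gene's strand) were found for 7 of the 10 genes, Fos, Fosb, Jun, Junb, Jund, Atf3 and Ier3, and not for Fosl1, Egr1 and Ier2. The RefSeq start lay within 30 bases of the outer gene start given here for 5 of them, but 1210 bases upstream of it for Jund and 34706 bases inside the gene for Atf3, so these windows sit at other starts than the printed spans. Capitals mark short motifs found on either strand. TGACG is the core of a cAMP response element and reads CGTCA when it lies on the opposite strand. TATAAA is the sequence of a TATA box, which normally lies a short way upstream of the start. CCAAT is bound by NF-Y and reads ATTGG on the opposite strand. The fourth, GCGGGGGCG, is an EGR-type site. The promoters of Fos (chr12:85473640-85473939, plus strand), Fosb (chr7:19309996-19310295, minus strand), Jun (chr4:95052173-95052472, minus strand), Junb (chr8:84978699-84978998, minus strand) and Atf3 (chr1:191183284-191183583, minus strand) read:
Fos: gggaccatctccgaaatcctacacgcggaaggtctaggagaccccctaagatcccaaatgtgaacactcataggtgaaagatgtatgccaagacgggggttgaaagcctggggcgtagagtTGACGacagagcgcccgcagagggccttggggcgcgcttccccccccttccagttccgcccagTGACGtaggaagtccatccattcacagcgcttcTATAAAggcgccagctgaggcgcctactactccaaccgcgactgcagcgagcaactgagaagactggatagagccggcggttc
Fosb: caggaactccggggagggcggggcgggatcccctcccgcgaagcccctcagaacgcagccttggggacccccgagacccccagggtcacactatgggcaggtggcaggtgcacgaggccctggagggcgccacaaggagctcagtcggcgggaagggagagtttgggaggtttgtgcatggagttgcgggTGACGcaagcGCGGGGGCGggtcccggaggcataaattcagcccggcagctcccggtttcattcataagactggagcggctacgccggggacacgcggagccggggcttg
Jun: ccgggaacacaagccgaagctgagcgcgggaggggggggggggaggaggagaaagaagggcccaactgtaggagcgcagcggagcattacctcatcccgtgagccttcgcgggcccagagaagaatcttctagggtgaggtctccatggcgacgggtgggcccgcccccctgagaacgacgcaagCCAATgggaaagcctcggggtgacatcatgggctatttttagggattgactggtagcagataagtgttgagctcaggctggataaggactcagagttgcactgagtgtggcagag
Junb: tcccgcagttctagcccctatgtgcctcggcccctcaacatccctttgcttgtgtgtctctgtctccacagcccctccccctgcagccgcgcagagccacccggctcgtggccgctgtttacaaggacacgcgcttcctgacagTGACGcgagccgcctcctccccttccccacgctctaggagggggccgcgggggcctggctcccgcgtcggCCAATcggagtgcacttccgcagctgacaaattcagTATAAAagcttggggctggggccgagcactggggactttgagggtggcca
Atf3: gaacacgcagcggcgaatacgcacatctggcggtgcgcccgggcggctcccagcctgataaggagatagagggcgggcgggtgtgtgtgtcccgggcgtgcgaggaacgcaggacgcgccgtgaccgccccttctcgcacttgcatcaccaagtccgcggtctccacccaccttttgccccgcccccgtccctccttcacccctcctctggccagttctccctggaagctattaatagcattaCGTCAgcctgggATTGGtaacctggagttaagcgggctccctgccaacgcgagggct

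Positions count from the annotated start as 0. The Fos promoter held TGACG at -129 and -66 and TATAAA at -33, and the Fosb promoter held TGACG at -60, next to GCGGGGGCG at -50. TGACG was found in 4 of the 7 promoters (Fos, Fosb, Junb and Atf3), against 21.0% of 27025 promoters of the same length. TATAAA was found in 2 of 7 (Fos, and Junb at position 0, on the annotated start itself), against 14.2%, and CCAAT in 4 of 7 (Jun, Junb, Atf3 and Ier3), against 37.9%. GCGGGGGCG was found in Fosb alone, against 2.92% of promoters. The letters TGACTCA (a TRE site, in 5.17% of promoters), TGACGTCA (a full cAMP response element, 1.88%), GCGTGGGCG (0.625%) and the CArG box of serum response factor (1.57%) were in none of the 7 windows. These are matches of letters within a short window and do not show that a factor binds or is absent.

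The libraries were then compared class by class. Across all genes, 3.14% of 2897 were past 1.5-fold either way in hormone-responsive cells, 2.1% of 2899 in secretory-lineage cells, 3.28% of 2931 in basal-like cells, 10.1% of 3307 in fibroblast-like cells, 6.97% of 3126 in T and NK-like cells, 24.2% of 1457 in endothelial-like cells, 25.3% of 1301 in macrophage-like cells and 3.64% of 2634 in the empty droplets. None of the 10 genes was past this fold in secretory-lineage, basal-like or fibroblast-like cells or in the droplets. Past it were Fosl1 in hormone-responsive cells (1 of 10), Jun in endothelial-like cells (1 of 9 with enough UMIs), Junb in T and NK-like cells (1 of 9), and Junb, Atf3 and Ier2 in macrophage-like cells (3 of 9). All 3 of the last were lower, where 128 of 1301 genes of that class were past the fold on the lower side.

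**Figure D4:**
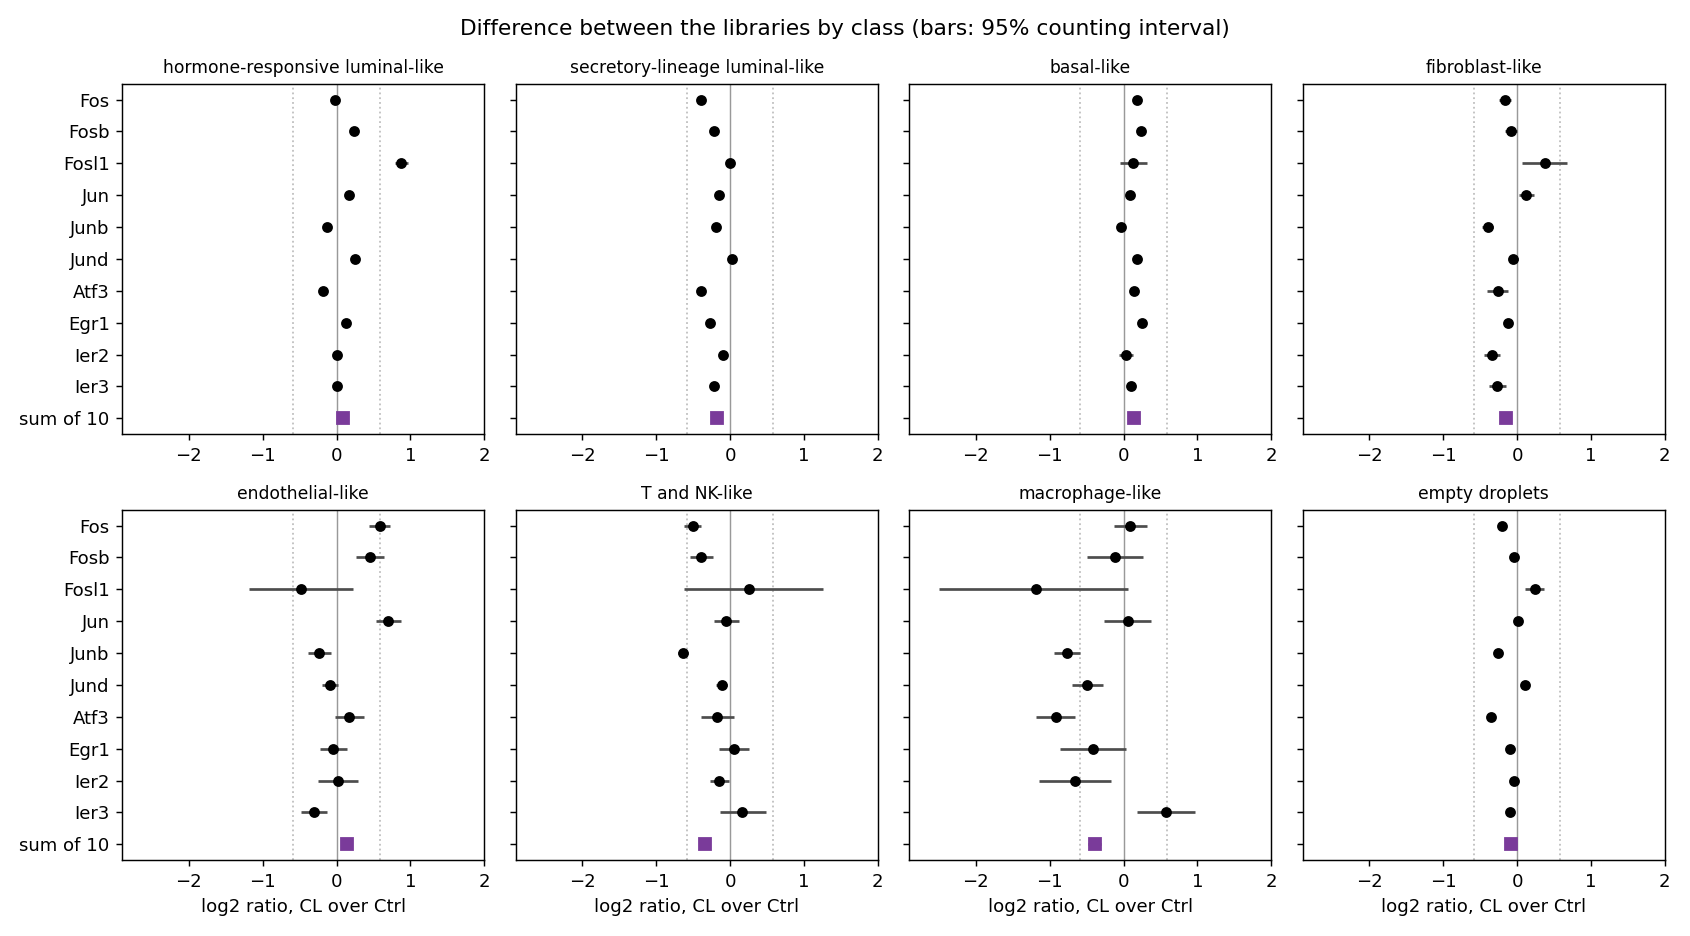
Log2 ratio of the CL-labelled library over the Ctrl-labelled library for each of the 10 genes (circles) and their sum (squares) in 7 classes and in the empty droplets, with bars for exact 95% counting intervals and dotted lines at 1.5-fold. Basal-like cells have 9 of 10 genes to the right of 0, secretory-lineage cells have 8 of 10 to the left, and the widest bars are those of Fosl1 in macrophage-like, T and NK-like and endothelial-like cells. The shares of all genes on either side of 0 were not counted.

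In basal-like cells the summed level was higher under the CL label, with a log2 ratio of 0.14 [0.12, 0.16], beside a median of -0.05 over all genes tested there. Of the 10 genes 9 were higher and the intervals of 7 lay above 0, from 0.09 for Jun to 0.25 for Egr1. The shares of all genes that were higher, or had intervals above 0, were not counted. The median of the 10 was 0.14. Depth moved with this result, since basal-like cells had medians of 8032.5 UMIs under the Ctrl label and 5832 under the CL label, and the third of cells with fewest UMIs had a higher summed level (19234 and 24242 CPM) than the third with most (13711 and 13005 CPM). Among those deepest cells the CL-labelled library was thus the lower one. The part of depth in the difference was not tested further.

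In hormone-responsive cells the summed log2 ratio was 0.09 [0.08, 0.09], with Jund at 0.24 [0.24, 0.25] and Fosb at 0.24 [0.23, 0.25] on the higher side and Atf3 at -0.19 [-0.20, -0.17] and Junb at -0.13 [-0.14, -0.11] on the lower. Fos differed by -0.02, Ier2 and Ier3 by 0.00. The CL-labelled library held more cells of some hormone-responsive clusters than the other, and with each cluster given the same share in both libraries the summed ratio was 0.04. Fosl1, at 0.88 [0.79, 0.96], was the largest ratio of the set there, from 1447 and 3444 UMIs. It was 0.34 without 1 cluster of 142 and 491 cells that also carried Ltf and Wfdc18, genes that lead secretory-lineage clusters, where Fosl1 was at 113 and 150 CPM, and 0.31 with equal cluster shares, below 1.5-fold in either case.

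In secretory-lineage cells the summed log2 ratio was -0.18 [-0.18, -0.17], and 8 of 10 genes were lower under the CL label with intervals below 0. Fos had -0.39 [-0.40, -0.37], Atf3 -0.39 [-0.42, -0.37], Egr1 -0.26 [-0.28, -0.25] and Ier3 -0.22 [-0.24, -0.20]. Fosl1 differed by 0.00 [-0.03, 0.04] and Jund by 0.03 [0.01, 0.04]. The median over all genes tested in this class was 0.01. The share of all genes with intervals below 0 was not counted, and with this many UMIs small differences lie outside counting error. The empty droplets also held less Fos (-0.20 [-0.22, -0.19]), Atf3 (-0.35 [-0.39, -0.32]) and Junb (-0.26 [-0.30, -0.22]) under the CL label, and the part of free RNA in the class values was not tested beyond subtracting 5% of it, which gave -0.18 for the sum.

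In fibroblast-like cells the summed log2 ratio was -0.15 [-0.18, -0.12], with Junb at -0.40 [-0.47, -0.32] and Ier2 at -0.34 [-0.45, -0.23] furthest from 0 among the lower genes, while Fosl1 (0.37 [0.07, 0.68]) and Jun (0.12 [0.02, 0.22]) were higher. Fos, at -0.16 [-0.25, -0.08], turned to 0.06 [-0.03, 0.14] without the smaller fibroblast-like cluster of 19 and 22 cells led by Ccl2, in which Fos was at 7040 and 924 CPM. The summed ratio without it was -0.12. Fibroblast-like cells had medians of 7121 UMIs under the Ctrl label and 5123 under the CL label. Cells of each library were also split by depth into bins of near equal size. The deepest bin had a summed level of 11911 [11709, 12115] and 12230 [12014, 12448] CPM, with overlapping intervals. The middle bin held 16379 and 12673 CPM and the shallowest 14610 and 11419 CPM, each lower under the CL label. The part of depth in the summed ratio was not tested.

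In T and NK-like cells the summed log2 ratio was -0.34 [-0.37, -0.30]. Junb, at -0.64 [-0.70, -0.57], was the only gene past 1.5-fold, and Fos had -0.51 [-0.62, -0.39] and Fosb -0.39 [-0.55, -0.24]. Junb was lower under the CL label in each of the 3 clusters of the class, with 2404 and 1826 CPM, 1925 and 1316 CPM, and 3730 and 3505 CPM, and was -0.37 when each cluster had the same share in both libraries, below 1.5-fold. The last of these clusters, led by Gzma, held 60 of the 213 cells of the class under the Ctrl label and 73 of 734 under the CL label. With doublets kept, which changed the clusters given this name, the summed ratio was -0.02 [-0.06, 0.01].

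The smallest classes rested on few cells. In macrophage-like cells (41 and 43) the summed log2 ratio was -0.39 [-0.48, -0.30], with Atf3 at -0.92 [-1.19, -0.65], Junb at -0.77 [-0.94, -0.59] and Ier2 at -0.66 [-1.14, -0.17]. A single cell of the CL-labelled library held 54.8% of the class's Fos UMIs and 42.5% of its Jun UMIs. Leaving out from each library the cell with most UMIs of the genes counted moved Fos from 0.09 to -0.85, the sum to -0.71 and Ier2 to -0.44 [-0.99, 0.11]. The summed level of macrophage-like cells was 9572 and 3808 CPM in the third of cells with fewest UMIs. In the third with most (14 and 15 cells) it was 4269 and 5400 CPM, higher under the CL label. The part of depth in this difference was not tested. In endothelial-like cells (54 and 60), a class that the CD31-TER119- gate should mostly remove, the summed ratio was 0.14 [0.08, 0.19]. It was 0.01 [-0.05, 0.07] without the top cell of each library, -0.04 with equal cluster shares, -0.14 with each cell named alone or as a mean over cells, and -0.00104 with a stricter minimum of genes per cell, so no direction is given. Jun there was at 0.70 [0.53, 0.87], and 0.39 when the top cell of each library was left out, since 1 cell of the CL-labelled library held 36.6% of its UMIs. Fos, at 0.58 [0.44, 0.73], turned to -0.30 when each cell was named alone and to -0.11 as a mean over cells. The median of thinned cells was lower under the CL label, 20.5 against 29 UMIs.

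Clusters within the luminal classes spanned a wider range than the difference between the libraries. Across hormone-responsive clusters the summed level ran from 14614 CPM in a dividing cluster to 24034 CPM in the Ctrl-labelled library, and across secretory-lineage clusters from 10629.7 to 20673 CPM. In the secretory-lineage class the same clusters were lowest and highest under the CL label, at 9851 and 17324 CPM. All 6 secretory-lineage clusters were lower under the CL label, and 3 of the 6 hormone-responsive clusters were higher, those with 16503 and 18054 CPM, 22658 and 24112 CPM, and 24034 and 24452 CPM. The secretory-lineage cluster with 14590 and 12053 CPM held 20 and 873 cells, so its Ctrl-labelled level rested on few cells. The dividing hormone-responsive cluster had 14614 and 11881 CPM.

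**Figure D5:**
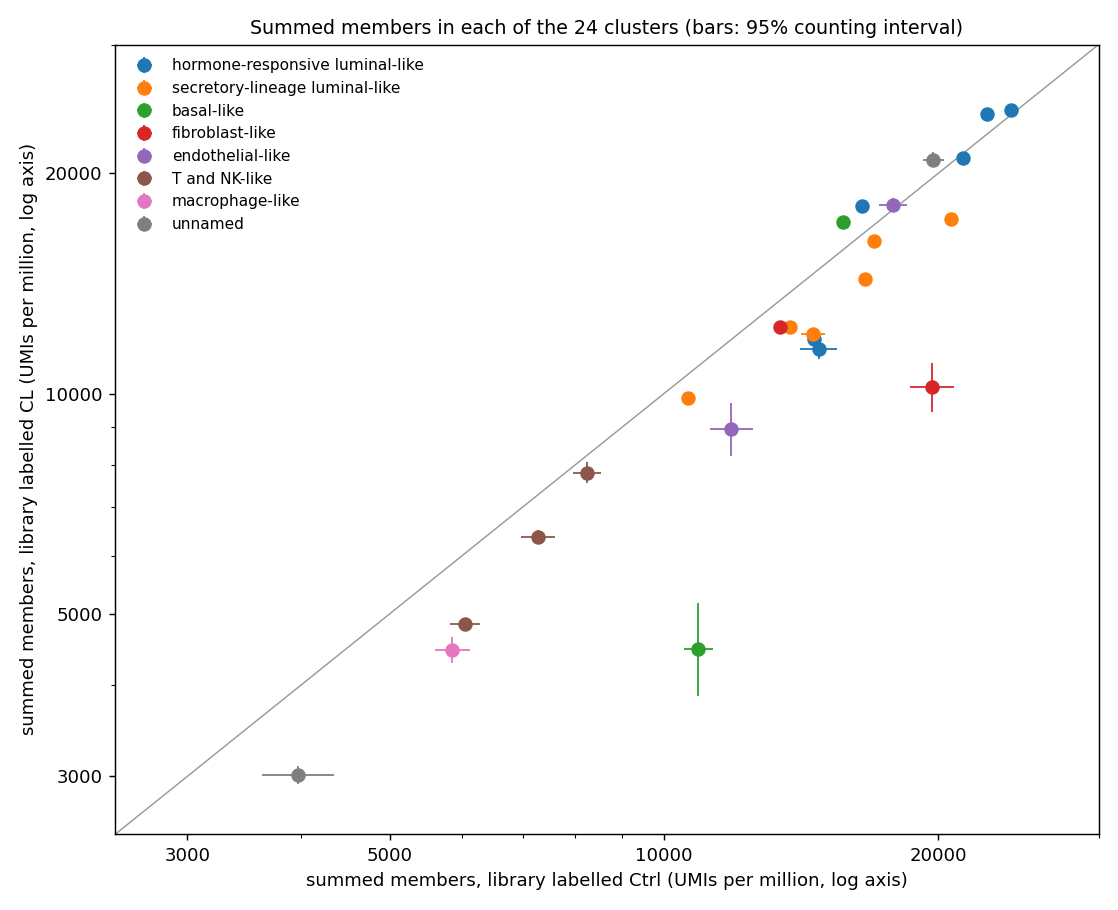
Summed level of the 10 genes in each of the 24 clusters (points, coloured by class) in the Ctrl-labelled library (horizontal, CPM, log axis) against the CL-labelled library (vertical, log axis), with exact 95% counting intervals as bars and the line of equal levels. Secretory-lineage clusters lie below the line, immune clusters lie at the lower left, and the basal-like point far below the line is a dividing cluster of 9 and 2 cells.

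Mitochondrial share, a common sign of cell stress, was set beside the levels. Hormone-responsive cells with 2 to 5% mitochondrial UMIs had a summed level of 21272 and 22311 CPM, against 18074 and 17672 CPM at 10 to 15%, but the few cells under 2% (43 and 44) were lower still, at 16908 and 15602 CPM. Basal-like cells went the other way, with 14626 and 16542 CPM at 2 to 5% and 20272 and 22104 CPM at 10 to 15%, the latter from 34 and 59 cells, and the 6 cells of each library under 2% were at 24247 and 6031 CPM. The level did not move with mitochondrial share in 1 direction across classes.

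Other genes of the pathway were described with 74 genes in 6 lists. Of the 10 other AP-1 and related bZIP genes, 6 to 8 had enough UMIs to be counted in hormone-responsive, secretory-lineage, basal-like and fibroblast-like cells, and none was past 1.5-fold between the libraries there. Past it on the lower side under the CL label were 3 of 7 in T and NK-like cells, 3 of 5 in macrophage-like and 2 of 6 in endothelial-like cells, where 150 of 3126, 128 of 1301 and 151 of 1457 of all genes were lower. Of the 5 other EGR and NAB genes, 1 or 2 were counted in the epithelial classes and none was past that fold, whereas in fibroblast-like cells 1 of 3 was lower and the list summed to -0.40 [-0.55, -0.25]. Over the 18 other immediate early genes the summed log2 ratio had the sign of the 10 genes in hormone-responsive (0.08), secretory-lineage (-0.11), basal-like (0.06), fibroblast-like (-0.12), T and NK-like (-0.17) and macrophage-like cells (-0.46). It was -0.07 [-0.16, 0.02] in endothelial-like cells. The other AP-1 and related bZIP genes summed to -0.01 [-0.04, 0.02] in basal-like and -0.56 in endothelial-like cells, without the sign of the 10 genes. Their sum shared that sign in hormone-responsive (0.19), secretory-lineage (-0.04) and fibroblast-like cells (-0.05). It also did so in T and NK-like (-0.40) and macrophage-like cells (-0.49). The lists of feedback inhibitors and heat shock genes, the latter chaperones induced by misfolded protein and heat, had -0.03 and -0.05 in hormone-responsive cells, and 0.09 and 0.13 in basal-like cells. In macrophage-like cells 4 of 8 tested other immediate early genes, 5 of 11 feedback inhibitors and 6 of 10 heat shock genes were past 1.5-fold on the lower side, while of all genes more were higher (201) than lower (128). Of the 14 upstream kinases and SRF factors, at most 5 were counted in a class, and none of these was past 1.5-fold.

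By the rule of largest ratios in each class, the feedback inhibitor Spry2 was lowest of the lists in T and NK-like cells (205 and 78.4 CPM, -1.39 [-1.64, -1.13]) and Klf2, a factor of resting lymphocytes, was among the highest (316 and 473 CPM, 0.58 [0.41, 0.75]). In fibroblast-like cells Spry1 was lowest (87.3 and 34.7 CPM, -1.33 [-1.79, -0.89]). The heat shock gene Hspa1a had -1.05 in fibroblast-like, -1.37 in T and NK-like and -1.99 in endothelial-like cells but 0.63 [0.49, 0.78] in basal-like cells, and reads can be split between Hspa1a and its near-identical copy Hspa1b. In macrophage-like cells Hspb1, a small heat shock protein, had -2.48 [-3.04, -1.94] (407 and 73.2 CPM). In basal-like cells Klf2 had 0.64 [0.43, 0.85], and Jdp2, a repressor of AP-1, -0.82 (36.1 and 20.4 CPM). Jdp2 was also lower in hormone-responsive cells (26.0 and 14.1 CPM, -0.89 [-1.01, -0.76]), where Arc had 0.71 (8.77 and 14.3 CPM). In secretory-lineage cells Ccn2, a YAP target, had -0.72 (29.0 and 17.7 CPM) and Plk2 -0.51 (171 and 121 CPM). On the higher side there were Dusp2, at 0.69 [0.05, 1.36] (1.00 and 1.62 CPM), and Nr4a3, at 0.33 [0.15, 0.51] (13.2 and 16.5 CPM).

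Of 6070 genes ranked by the correlation of their log2 level with the summed level over 18 class-by-library sums, Klf4, itself an immediate early factor of epithelial and vascular cells, came closest with a Pearson r of 0.94, from 94.99 CPM in macrophage-like cells to 802 CPM in the cluster led by Gm13889. Atp9a, Ddb1, Tsen34, Pigp, Nfia, Gstt1, Ift43, Pard3 and Cltb followed with r from 0.93 to 0.92. Among the 10 genes themselves Fosb (0.98), Jund (0.94), Fos (0.94) and Jun (0.91) had the highest r with the sum and Fosl1 (0.55) and Junb (0.62) the lowest. Each gene is part of the sum, which raises r by construction, most for the abundant Fos, Jund and Jun. The 18 sums come from 2 libraries and share their cells' processing, so no p-value is given.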

How the data were processed

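The authors deposited raw counts of UMIs per gene and barcode for each library, with empty droplets included, no filter and no normalization. Per the submitters' notes they came from Cell Ranger 2.1.1 and build mm10, while the file headers name Cell Ranger 4. The deposited barcode lists (7217 and 10555 entries) did not index the matrices, so the barcodes richest in UMIs were taken, equal in number to the list entries. Library totals were 118743318 and 155765480 UMIs. A minimum of 500 genes and a mitochondrial share of up to 15% left 6297 and 9335 barcodes. Doublets were called with Scrublet in scanpy 1.11.5. Its threshold for the library labelled Ctrl (360 cells, 5.72%) was also applied to the library labelled CL (509 cells, 5.45%), where the automatic one marked 0 and had not worked. Clusters (2000 variable genes, 30 components, 15 neighbours, Leiden resolution 1.0) were made without the 10 genes and the related lists. A cluster was named where at least 3 fixed markers, each in at least 10% of cells, exceeded 2 times a reference level over clusters, the next class scored under 65% and the top 10 genes did not favour another class. These scoring limits were set after the data were seen, so differences from the study may come from rebuilt names.

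UMIs were summed by class and library. A gene counts as past the fold at 1.5-fold with at least 50 CPM and 50 UMIs on the higher side. The list genes named are the 2 highest and 2 lowest ratios per class among genes with at least 50 UMIs, of which examples are given, and the genes of like pattern are the 10 with the highest correlation. Ccn1, Ccn2 and Mrtfa were matched through RefSeq synonyms. The 10 genes and the lists were chosen with earlier results of these data known. Intervals were tested on simulated counts drawn with counting error only. That check could not show whether they hold for the wider spread between cells or animals. Alternatives covered filters, doublets, resolution, naming of each cell alone, cell means, TMM factors (edgeR 4.0.16) and free RNA. Gene positions are from GENCODE on GRCm38.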

Additional observations from a re-analysis of the deposited data

Results flagged for a closer look

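The summed level of the 10 genes differed in opposite directions between classes. The log2 ratio of the library labelled CL over the library labelled Ctrl was 0.14 in basal-like and 0.088 in hormone-responsive luminal-like cells, but -0.18 in secretory-lineage luminal-like, -0.15 in fibroblast-like, -0.34 in T and NK-like and -0.39 in macrophage-like cells. With 1 library per group the difference between these classes was not tested.

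Barcodes removed for more than 15% mitochondrial UMIs, which no comparison uses, still carried the set at 16077 CPM (612 barcodes of the library labelled Ctrl) and 15760.0 CPM (746 barcodes of the library labelled CL), with no control samples of their own.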

How the results depend on the processing

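No paired analysis was possible because each group has 1 library, and for the same reason no replicate could be left out. Values are log2 ratios of the CL-labelled over the Ctrl-labelled library for the summed 10 genes, and the sums of the other 6 classes and the droplets kept their direction under the settings below, while that of endothelial-like cells did not. Settings with equal cluster shares, without a named cluster and without the cell with most UMIs were chosen after seeing the data. With doublets kept the ratio was 0.106 in basal-like, 0.064 in hormone-responsive and -0.0203 [-0.0554, 0.0149] in T and NK-like cells, the latter no longer apart from 0. With each cell named alone it was 0.105, 0.093 and -0.395 in these classes, -0.081 in fibroblast-like and -0.287 in macrophage-like cells. As a mean of the CPM of each cell it was 0.236 (basal-like), 0.1025 (hormone-responsive), -0.164 (secretory-lineage), -0.245 (fibroblast-like), -0.276 (T and NK-like) and -0.759 (macrophage-like). TMM factors gave 0.212 (basal-like), 0.114 (hormone-responsive) and -0.131 (secretory-lineage). Equal cluster shares gave 0.097 (basal-like), 0.036 (hormone-responsive) and -0.228 (T and NK-like). A mitochondrial limit of 5% gave 0.067 (hormone-responsive), -0.19 (fibroblast-like) and -0.38 (T and NK-like). Subtracting 5% free RNA gave 0.096 (hormone-responsive), -0.181 (secretory-lineage) and -0.376 (T and NK-like). Without the gene with most UMIs it was 0.127 (hormone-responsive), -0.235 (secretory-lineage), -0.182 (T and NK-like), -0.261 (macrophage-like) and -0.032 (empty droplets). Leaving out 1 cluster gave 0.108 (hormone-responsive) and -0.119 (fibroblast-like), resolution 0.5 gave -0.0697 (fibroblast-like), leaving out the top cell gave -0.707 (macrophage-like), and droplets of 30 to 100 UMIs gave -0.293. In endothelial-like cells (main value 0.136, all settings added after seeing the data) the sum was reversed at -0.00104 (stricter minimum of genes per cell), -0.138 (each cell named alone), -0.144 (mean of the CPM of each cell) and -0.039 (equal cluster shares). It was 0.0122 without the top cell, 0.195 with a mitochondrial limit of 5%, 0.224 with doublets kept, 0.204 at resolution 0.5, 0.196 with TMM factors and 0.203 without the gene with most UMIs. The other 42 sums moved by less than the counting error of the main value. Resolution 0.5 gave no macrophage-like class. Of single genes, Fos turned to 0.058 in fibroblast-like cells without the smaller cluster, and in endothelial-like cells to -0.304 with each cell named alone and -0.112 as a mean over cells. Causes were not tested beyond what each setting leaves out. Counts of 10 to 100 UMIs, as for Fosl1 in the immune classes, limit what can be said there.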

Other observations

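Relatives of the 10 genes had class patterns of their own, named here after their values were seen. Cebpb, a bZIP factor of epithelial and myeloid cells, was at 233 and 307 CPM in hormone-responsive luminal-like cells, 1355 and 1472 CPM in secretory-lineage cells and 3083 and 3100 CPM in basal-like cells (Ctrl label first). Nr4a2, an orphan nuclear receptor induced by antigen receptor signals, was at 968 and 718 CPM in T and NK-like cells, and Fosl2 was at 513 and 339 CPM there. These are levels from 1 library per group with no test.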
